A study of Caenorhabditis elegans with 12 samples.

Results

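Genes on the X chromosome of Caenorhabditis elegans that carry a sequence name and no other symbol were followed in germ lines of single mes-2 and mes-4 mutants and of worms that carry both mutations. A sequence name such as F11C1.1 joins the name of a genomic clone to the number of the predicted gene on it, and such genes have no symbol from a phenotype, a protein family or a known function. Members had to lie on X in the reference gene table (assembly WBcel235), to have a symbol with a dot and no hyphen, and to have a probe naming 1 gene. In each of the 3 groups, 3 or all 4 arrays had to give a value. These conditions left 783 of 12887 genes tested, or 783 of the 1702 X-linked genes tested. The size of a ratio played no part in the choice. The sequence-named X-linked genes were set beside 4345 sequence-named autosomal genes, which share the kind of name, and 919 X-linked genes with other names, which share the chromosome.

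The array probed 1062 sequence-named X-linked genes, so 73.7% passed the condition on values, against 76.9% of the sequence-named autosomal genes and 79.3% of the X-linked genes with other names. Of the 279 that did not pass, 15 had no value on any array. Among those 279, 62 had a value on at least 3 arrays in the mes-2 group, 96 in the mes-4 group and 81 in the double mutant group. They were not tested, and the counts below describe the genes that passed. The gene table lists 736 of the 783 as protein coding, 42 as pseudogenes, 4 as ncRNA and 1 as lncRNA. A value on all 12 arrays was present for 663 of them.

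MES-2 belongs to the Polycomb complex that methylates lysine 27 of histone H3 in worms, a mark of repressed chromatin. MES-4 methylates lysine 36 of histone H3 and in germ cells is concentrated on the autosomes, at genes that the germ line expresses. The X chromosomes are kept largely silent in the worm germ line, where most germline-expressed genes are autosomal, and loss of either protein is known to leave the germ line of the offspring degenerate. The question of the comparisons is which of these X-linked genes are expressed at another level in germ lines of each mutant than in wild-type germ lines.

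Each of the 12 two-colour arrays held RNA of dissected germ lines from adults grown at 20 °C, 1 mutant and 1 wild-type sample per array and 4 independently harvested pairs per group. mes-2 mutants were strain SS0186 and were set against unc-4(e120), mes-4 mutants were strain SS0803 and were set against N2, and double mutants were strain SS0965 and were set against unc-4(e120). The labels name no mes allele, and they select double mutant germ lines that had proliferated well and held oocytes, but adults with few or no fertilized embryos for the single mutants and wild type. How the animals were picked therefore cannot be told apart from genotype in the double mutant, nor the wild-type strain from genotype between mes-4 and the other groups. In RNA of whole germ lines, fewer cells of a type and less RNA per cell cannot be told apart.

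Values are log ratios of mutant to wild type, taken as log2 with mutant on top, since the labels state neither base nor direction. The mes-2 probe fell in both genotypes that carry the mutation, to -2.80 (SE 0.20) in mes-2 and -2.49 in the double mutant, and lay below 0 on all 8 of those arrays. The mes-4 probe had 0.63 in mes-4 (limma adjusted p = 0.227) and -0.03 in the double mutant, so no probe checks the label of mes-4. Once group and dye were fitted, 1 axis held 47.0% of the variance that remained. Double mutant replicates 1 and 4 lay at its upper end together with mes-4 replicate 3 (the 3 upper arrays below), and double mutant replicates 2 and 3 at its lower end (the 2 lower arrays). A dye effect was called for 262 of the 783 genes, and for 4125 of all 12887. Ratios do not show whether a tissue's markers are present, only whether they changed. Of 11 measured germ line markers 5 fell in the double mutant (cgh-1, gld-1, htp-3, pgl-1 and rec-8), 1 fell in mes-4 (gld-1) and 0 were called in mes-2. The 12 measured intestinal markers had a median of -0.93 in mes-4, with array medians from -1.57 to -0.22 and no call. Of 10 listed neuronal markers only 4 were measured, of which 3 rose in the double mutant, 2 in mes-2 and 1 in mes-4. Over all genes tested, 9.62% were called higher in the double mutant, 3.94% in mes-2 and 2.52% in mes-4. Called lower were 6.25%, 1.3% and 1.39% in the same order. Of 5 body wall muscle markers, mup-2 and myo-3 fell in the double mutant (list median -0.48). Of 8 hypodermal markers, rol-6 fell in mes-4 (list median -0.38) and sqt-3 rose in the double mutant. Among sheath and sperm markers, nmy-1 rose in mes-4, and spe-15 rose in mes-2 and fell in mes-4 and in the double mutant. The part of these tissues in the results was not tested.

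The sequence-named X-linked genes were called higher in 9.32% of cases in mes-4 and 19.2% in the double mutant, and rarely lower. A gene was called at a limma adjusted p under 0.05 over all 12887 genes. In mes-2, 24 of 783 were called higher, a share of 3.07% against 3.94% of all genes tested, and 7 were called lower, 0.894% against 1.3% of all genes. In mes-4, 73 were called higher against 2.52% of all genes, and 2 were called lower, 0.255% against 1.39% of all genes. In the double mutant, 150 were called higher against 9.62% of all genes, and 17 were called lower, 2.17% against 6.25% of all genes. In mes-4 and in the double mutant the share of higher calls lay above that of all genes, also under each of the 23 other settings tried. In mes-2 it lay below, but above under 3 of the 23: without the 3 upper arrays, with the group's own arrays (3.58% against 2.94%) and without double mutant replicate 1 (4.73% against 4.32%).

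The sequence-named autosomal genes gave another balance. In mes-2, 209 of 4345 were higher (4.81%) and 61 lower (1.40%). In mes-4, 66 were higher (1.52%) and 69 lower (1.59%), and in the double mutant 363 were higher (8.35%) and 284 lower (6.54%). Among X-linked genes with other names, 34 of 919 were higher in mes-2 (3.70%), 120 in mes-4 (13.1%) and 208 in the double mutant (22.6%). The sequence-named X-linked genes therefore had lower shares of higher calls than the rest of X in mes-4 and in the double mutant, and higher shares than the sequence-named autosomal genes there, also under the 23 other settings. In mes-2 the order against the rest of X was not stable, since 12 of the 23 settings turned it, among them the fit without the dye term (2.04% against 1.96%) and that with the arrays scaled (4.09% against 3.92%). These shares are descriptions, since genes on 1 chromosome are not independent.

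**Figure D1:**
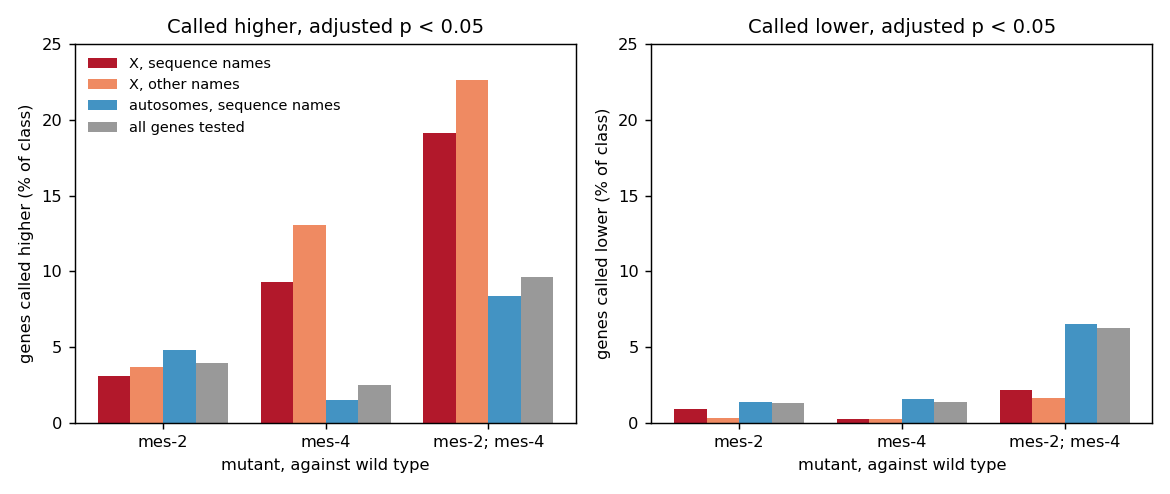
Share of genes called higher and lower (percent of the class, limma adjusted p under 0.05) in each mutant, as bars from 0 for sequence-named X-linked genes, X-linked genes with other names, sequence-named autosomal genes and all genes tested. In the double mutant 19.2% of the sequence-named X-linked genes were higher, against 8.35% of the sequence-named autosomal genes.

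The shift of the bulk was small beside these tails. The median fitted log2 ratio of the 783 genes was 0.01 in mes-2, 0.06 in mes-4 and 0.09 in the double mutant, against -0.0025, -0.0025 and 0.005 over all genes tested and -0.01, -0.03 and -0.01 in sequence-named autosomal genes. The upper tail moved further: the 90th percentile of log2 ratios was 0.46 in mes-2, 0.80 in mes-4 and 1.19 in the double mutant, against 0.40, 0.23 and 0.45 in sequence-named autosomal genes. A log2 ratio above 1, which is a more than 2-fold rise, was found among called genes for 9 in mes-2 (1.15%, against 1.72% of all genes), 38 in mes-4 (4.85%, against 1.04%) and 85 in the double mutant (10.9%, against 3.37%). More than 2-fold falls were called for 2 genes in mes-2 (0.255%, against 0.279% of all genes). In mes-4 there were 0 (against 0.295%), and in the double mutant 1 (0.128%, against 1.17%).

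**Figure D2:**
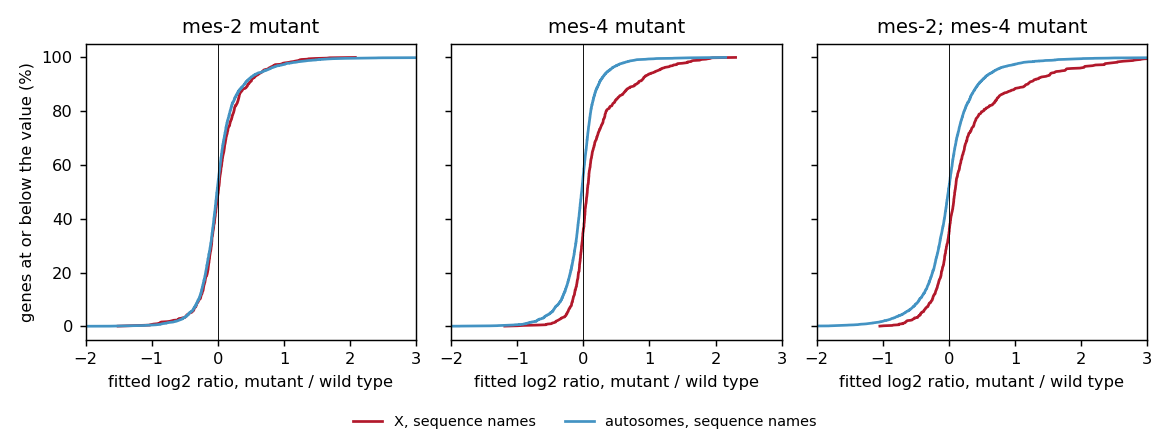
Cumulative share of genes (percent, y axis) by fitted log2 ratio of mutant to wild type (x axis, drawn from -2 to 3) in each mutant, for sequence-named X-linked genes and for sequence-named autosomal genes. In mes-4 and in the double mutant the curve of the X-linked genes lies to the right in its upper part, with 90th percentiles of 0.80 and 1.19 against 0.23 and 0.45. At most 10 autosomal and 4 X-linked genes per mutant lie outside the drawn range.

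On single arrays, the median of the sequence-named X-linked genes minus that of the sequence-named autosomal genes was -0.05, 0.08, -0.08 and 0.14 in mes-2. It was 0.24, 0.21, 0.04 and 0.03 in mes-4, and 0.13, 0.04, 0.32 and 0.06 in the double mutant. The difference was above 0 on 4 of 4 arrays in mes-4 and in the double mutant and on 2 of 4 in mes-2, and it averaged 0.13 ± 0.11 (SD, n = 4), 0.14 ± 0.13 (SD, n = 4) and 0.02 ± 0.10 (SD, n = 4) in these groups. It differed with the dye. With mutant RNA in Cy3 it averaged 0.23 in mes-4, 0.23 in the double mutant and 0.11 in mes-2, and with mutant RNA in Cy5 0.04, 0.05 and -0.07. The dye was balanced within each group and was a term of the fit. The genes called higher ran the other way, with medians for mutant RNA in Cy5 and in Cy3 of 1.17 and 0.90 in mes-4, 1.28 and 1.03 in the double mutant and 0.94 and 0.69 in mes-2. They were chosen by these same values, so their lying above 0 on every array with a value in 73 of 73, 141 of 150 and 23 of 24 cases is a description.

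In mes-4 the largest rise among these genes was that of K09E3.4, listed as a pseudogene. Its log2 ratios in mes-4 were 2.00, 0.92, 2.67 and 3.62, and the fitted rise was 2.30 (SE 0.28, n = 4, limma adjusted p = 0.00167). In mes-2 it had 0.37, -0.46, 0.76 and 0.05, on both sides of 0, and in the double mutant 1.98, 2.33 and 1.45 on the 3 arrays with a value. The 3 genes whose values over 11 arrays were most like those of K09E3.4, of 663 compared, were ZK899.2 (r = 0.90), T04G9.4 (r = 0.86) and K04C1.3 (r = 0.85).

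K04C1.3 had 1.87, 1.79, 1.75 and 2.29 in mes-4, with a fitted rise of 1.93 (SE 0.15, adjusted p = 1.33e-04). It had 0.05, -0.17, 0.28 and -0.53 in mes-2 and 1.17, 1.77, 2.19 and 1.89 in the double mutant. Its values in both genotypes with a mes-4 mutation lay above all its values in mes-2. Such gaps between mutants, here and below, describe genes chosen by these same values. They were not counted over all genes tested. The next tested gene on X, K04C1.5, also rose in mes-4, by 0.77, and was chosen after its value was seen.

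Y7A5A.1 had 1.73, 2.56, 1.59 and 1.79 in mes-4, with a fitted rise of 1.92 (SE 0.23, adjusted p = 9.76e-04), and rose less in the other mutants, by 1.13 in the double mutant and 1.01 in mes-2. Y34B4A.2 had 1.76, 1.43, 2.17 and 2.15 in mes-4, with a rise of 1.88 (SE 0.18, adjusted p = 2.63e-04). F39C12.1 had 2.28, 1.88, 1.15 and 2.11, with a rise of 1.86 (SE 0.32, adjusted p = 0.00746). All the mes-4 values of these 3 genes lay above 1. Among the other genes with the largest rises in mes-4, T20F7.1 rose by 1.95 (SE 0.48, adjusted p = 0.0484), W05H9.2 by 1.78, H40L08.1 by 1.77, F46H5.4 by 1.76, F08G12.1 by 1.66, and F54B11.5 and C45B2.6 by 1.64 each. The mes-4 call was lost under 11 of 22 other settings for T20F7.1 and under 10 of 22 for W05H9.2, the replicate block included.

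Falls in mes-4 were few and small. W05H9.3, listed as ncRNA, had -0.64, -0.68, -0.38 and -0.20 in mes-4, with a fitted ratio of -0.48 (SE 0.10, limma adjusted p = 0.0225). Its values in mes-2 were 0.20, 0.17, 0.52 and 0.28, all above 0. C29F7.2, the other gene that fell, had -0.60, -0.77, -0.08 and -0.28 in mes-4 and also fell in mes-2. The mes-4 call was lost under 7 of 22 other settings for W05H9.3 and under 8 of 22 for C29F7.2. For both it was lost whenever a single mes-4 replicate was left out.

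The count of 73 depended on which arrays were used. It was 38 without mes-4 replicate 1 (4.85%, against 1.10% of all genes), 41 without replicate 2 (5.24%, against 1.28%) and 42 without replicate 4 (5.36%, against 1.31%). Without the 3 upper arrays it was 108 (13.8%, against 5.81% of all genes), and without the 2 lower arrays 105 (13.4%, against 3.91%).

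In mes-2 the rises involved few genes, of which T20F7.1 rose most. T20F7.1 had 1.99, 2.01, 2.22 and 2.10 in mes-2, values that differed by little between arrays, with a fitted rise of 2.08 (SE 0.48, limma adjusted p = 0.0293). Its standard error is set by all groups together, and in the double mutant it had 1.41, 4.59, 4.54 and 2.19. The mes-2 call of T20F7.1 was lost under 6 of 22 other settings, among them each that left out a mes-2 replicate.

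C11H1.5 was high in mes-2, at 2.75, 1.33, 1.80 and 0.88, with a rise of 1.69 (SE 0.18, adjusted p = 3.15e-04), while its mes-4 values of -0.25, -0.39, 0.14 and 0.68 lay on both sides of 0. H11L12.1 had 1.97, 1.33, 1.89 and 1.41 in mes-2, with a rise of 1.65 (SE 0.12, adjusted p = 2.54e-05), and it also rose in mes-4, by 1.07, and in the double mutant, by 1.60. F34H10.1 had 1.17, 2.30, 0.57 and 0.83 in mes-2 (rise of 1.22, SE 0.21) and 0.46, 0.27, 0.10 and -0.07 in mes-4. The highest mes-4 value of C11H1.5 and of F34H10.1 lay below their lowest in mes-2. Among the other large rises in mes-2, W07E11.1 rose by 1.27, F11C1.1 by 1.10, R04D3.4 by 1.08, B0410.3 by 1.05, W06D11.3 by 0.96 and T13C5.6 by 0.78.

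F22F1.2 fell in mes-2, where it had -1.33, -2.13, -1.07 and -1.5, for a fitted ratio of -1.51 (SE 0.20, adjusted p = 0.00144). It lay above 0 on every mes-4 array, at 0.57, 0.32, 1.24 and 0.05, and at 0.54, -0.12, 0.42 and 0.51 in the double mutant. F16F9.3 had -1.86, -0.84 and -0.98 on the 3 mes-2 arrays with a value, for a ratio of -1.22 (SE 0.24, adjusted p = 0.0279). The remaining falls named in mes-2 were smaller: F39H12.3 fell to -0.67, B0310.3 to -0.59, Y72A10A.1 to -0.48 and F23D12.4 to -0.44. B0310.3 (adjusted p = 0.0494) and F23D12.4 (adjusted p = 0.0483) lay near the threshold and lost the call under 13 and 14 of 22 other settings. F23D12.4 rose in the double mutant, where it had 0.53, 0.84, 0.90 and 0.38.

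The mes-2 count of 24 was 12 without mes-2 replicate 2 and 14 without replicate 3, and 37 without double mutant replicate 1. It was 61 without the 3 upper arrays (7.79%, against 5.89% of all genes), so that the share then exceeded the background. Without the 2 lower arrays it was 38 (4.85%, against 5.01% of all genes).

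In the fit over all arrays more genes were called higher in the double mutant than in either single mutant, and the largest fitted rises were greater. The order of the counts turned when each group's own arrays were fitted, with 26 in the double mutant, 70 in mes-4 and 28 in mes-2. Y26E6A.2 had 3.02, 4.01 and 3.52 on the 3 double mutant arrays with a value, with a fitted rise of 3.52 (SE 0.18, limma adjusted p = 2.14e-06). In mes-4 it had 1.21, 1.34, 1.06 and 1.07, and in mes-2 0.26, 0.19, -0.21 and 0.47. Its values in the 3 genotypes did not overlap.

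F08G12.1 had 2.06, 4.39, 4.60 and 3.00 in the double mutant, with a rise of 3.51 (SE 0.34, adjusted p = 6.20e-05). R08B4.3 had 2.27, 3.06, 3.24 and 3.02, with a rise of 2.90 (SE 0.14, adjusted p = 6.33e-07), against 0.86, 0.72, 1.34 and 1.72 in mes-4 and 0.29, 0.03, 0.50 and -0.14 in mes-2. Its double mutant values lay above its mes-4 values, and these above its mes-2 values. W06D11.3 had 2.83, 3.18, 2.64 and 3.17 in the double mutant, with a rise of 2.96 (SE 0.09, adjusted p = 3.46e-08).

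F11C1.1 had 2.14, 3.25, 3.15 and 2.81 in the double mutant (rise of 2.84, SE 0.15), C27C12.4 had 1.94, 3.53, 3.06 and 2.67 (rise of 2.80, SE 0.19) and C31E10.6 had 1.68, 4.08, 4.03 and 2.69 (rise of 3.12, SE 0.32). In each of these, replicates 2 and 3 were higher than replicates 1 and 4. K07E3.1 showed the widest spread of the 12 largest rises, with 1.12, 3.72, 5.63 and 1.18, and a rise of 2.91 (SE 0.59, adjusted p = 0.00613). T20F7.1 rose by 3.18, W05H9.2 by 2.79, Y34B4A.2 by 2.70 and H40L08.1 by 2.64 in the double mutant.

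Falls in the double mutant stayed mostly within a factor of 2. F23D12.3 had -0.60, -1.18, -1.15 and -1.24 and fell to -1.04 (SE 0.27, adjusted p = 0.027). The lower members T08D2.5, C39D10.7, C10E2.5, C04C11.1 and F38B6.7 had fitted ratios of -0.75, -0.70, -0.68, -0.66 and -0.65. These 6 genes were named only from those below 0 on every double mutant array, which held for 14 of the 17 lower calls. The call was lost under 9 of 21 other settings for F23D12.3 and under 11 of 21 for F38B6.7.

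Double mutant replicates 2 and 3, the 2 lower arrays, gave the highest values for many of the genes that rose. Over the 150 genes called higher, the array medians were 0.72, 1.39, 1.37 and 1.07, and the 90th percentiles over all 783 genes were 0.87, 1.49, 1.68 and 1.18. Replicates 2 and 3 were both above replicates 1 and 4 in 60 of 141 called genes with 4 values (42.6%), against 158 of 704 of all these genes (22.4%). Without replicates 2 and 3, 130 were called higher (16.6%, against 13.1% of all genes), and without the 3 upper arrays 164 (20.9%, against 9.99%). With the 4 double mutant arrays fitted on their own, 26 were called higher (3.32%, against 1.18% of all genes). The same kind of fit gave 70 in mes-4 and 28 in mes-2. The cause of the lower count in the double mutant was not tested.

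The single and double mutant calls overlapped. Of the 73 genes higher in mes-4, 66 were also higher in the double mutant, which is 90.4% of the 73 and 44.0% of the 150. These 73 had a median log2 ratio of 1.07 in mes-4, 1.55 in the double mutant and 0.45 in mes-2. Of the 24 genes higher in mes-2, 20 were higher in the double mutant and 18 in mes-4. The labels do not say whether wild-type samples were shared between groups, and the fit shares its dye term and error, so these overlaps are given as counts only.

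**Figure D3:**
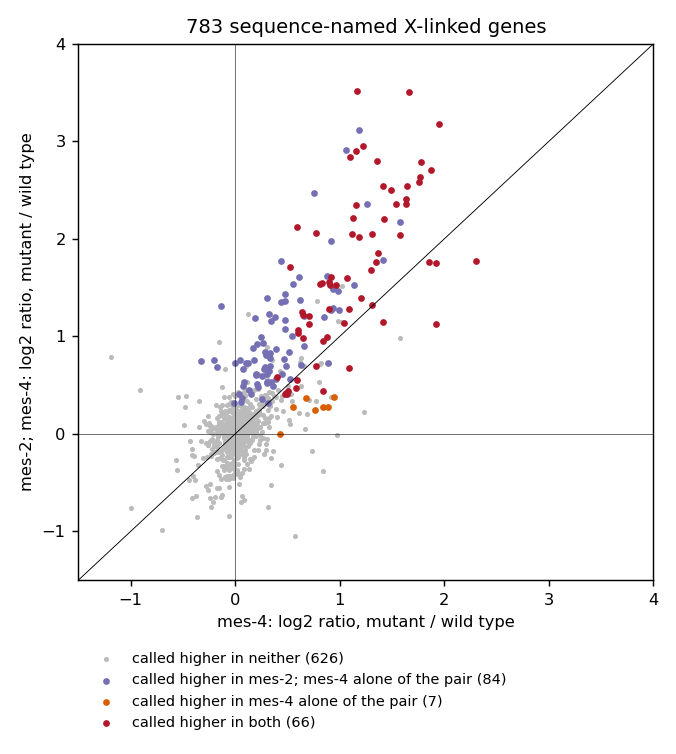
Fitted log2 ratio of mutant to wild type in mes-4 (x axis) and in the double mutant (y axis) for the 783 sequence-named X-linked genes, coloured by which of these 2 comparisons called the gene higher, with the diagonal of equal ratios. The 66 genes called higher in both lie mostly above the diagonal.

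A set of 15 genes was called higher in all 3 mutants: B0272.3, B0410.3, B0416.4, C27C12.1, F11C1.1, F20D1.3, F48E3.6, H11L12.1, R04D3.4, T13C5.6, T20F7.1, T23F2.5, W06D11.3, Y34B4A.2 and Y7A5A.1. Their median log2 ratio was 1.86 in the double mutant, 1.10 in mes-4 and 0.96 in mes-2, and 12 of them had their highest ratio in the double mutant. The mes-2 call of F20D1.3 and of T23F2.5 was lost under 11 of 22 other settings each. The values of T13C5.6 were close between arrays, at 1.2, 1.46, 1.91 and 1.61 in the double mutant, 0.78, 0.65, 1.00 and 0.89 in mes-4, and 0.89, 0.76, 0.72 and 0.75 in mes-2. F48E3.6 was the reverse case, with 0.34, 0.88, 0.90 and 0.57 in the double mutant, 1.03, 0.92, 1.24 and 1.16 in mes-4 and 0.36, 0.63, 0.69 and 0.77 in mes-2, so that its highest values were in mes-4. B0416.4 had 2.03, 2.27, 1.84 and 2.09 in the double mutant, above all its values in mes-4 and mes-2.

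**Figure D4:**
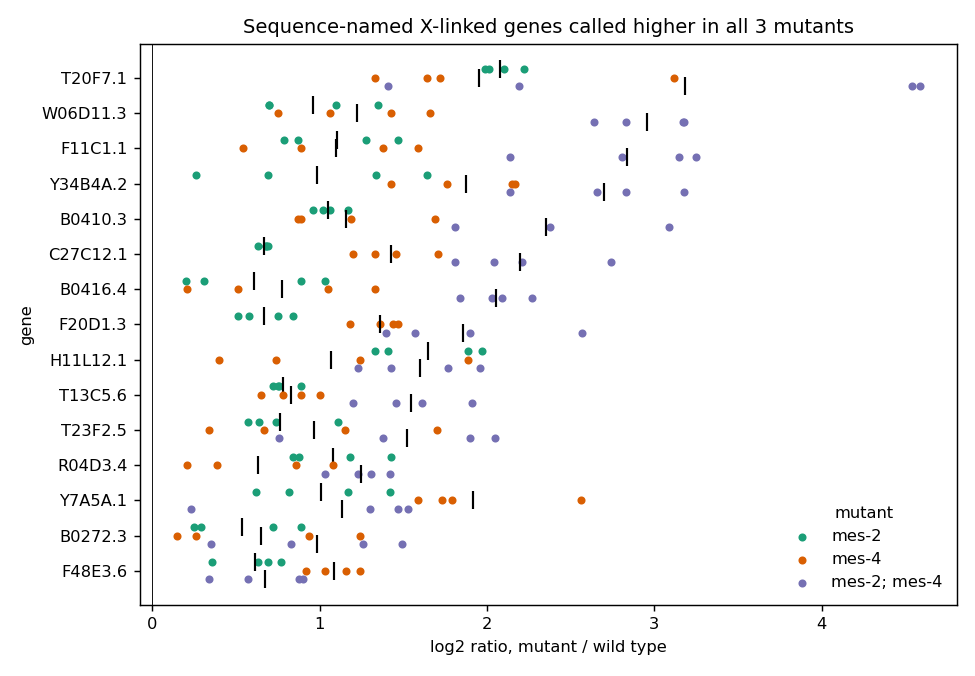
Log2 ratio of mutant to wild type on each array for the 15 genes called higher in all 3 mutants, with a point per array, a black line at the fitted ratio and a colour for each mutant. In 12 of the 15 the fitted ratio was highest in the double mutant.

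Outside the sets shared by mes-4 and the double mutant, 78 genes were called higher in the double mutant only. Their median log2 ratio was 0.82 in the double mutant, 0.34 in mes-4 and 0.18 in mes-2, and 30 exceeded a 2-fold rise. Not being called in a single mutant does not show a difference: 21 of the 78 differed between the double mutant and mes-2 by the test of the difference, and 2 between the double mutant and mes-4. The sets called in the other patterns were small and were named after their values were seen. C05D9.7, F39H12.1, F59C12.3 and K10B3.5 were called in mes-4 alone, with rises from 0.55 to 0.94, and C06E2.5 in mes-2 alone, with 0.69. K04C1.5, R04D3.2 and Y15E3A.3 were called in mes-4 and mes-2 and not in the double mutant, and C11H1.5, F34H10.1, M02F4.1, T10B10.8 and W07E11.1 in the double mutant and mes-2 and not in mes-4. In all, 601 of the 783 genes were called in none of the 3 mutants. The overlaps and patterns were not counted over all genes tested, so they are not shown to be particular to these genes.

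The differences between mutants were then tested directly. Between the double mutant and mes-2, 69 of the genes were higher in the double mutant (8.81%, against 3.57% of all genes). Lower in the double mutant were 3, F38B6.7, C02B8.3 and R04D3.2 (0.383%, against 2.62%). Y26E6A.2 was higher in the double mutant than in mes-2 by 3.34, F08G12.1 by 3.04, C36B7.6 by 2.77 and R08B4.3 by 2.73 on the log2 scale. C36B7.6 had 1.07, 3.70, 3.31 and 1.94 in the double mutant and -0.46, -0.44, 0.27 and -0.41 in mes-2, with no overlap. C02B8.3, one of the 3 lower genes, had -0.43, -0.75, -0.46 and -0.94 in the double mutant and -0.19, 0.17, -0.07 and 0.28 in mes-2. The difference lost its call under 16 of 21 other settings for F38B6.7 and under 14 of 22 for R04D3.2.

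Between the double mutant and mes-4, 15 genes were higher in the double mutant (1.92%), close to the 1.46% of all genes. The share was 1.31% in sequence-named autosomal genes and 4.35% in X-linked genes with other names. By limma 0 of the 783 genes were lower, against 0.318% of all genes, although 29 were lower at an unadjusted p under 0.05. Y26E6A.2 was higher by 2.35, R08B4.3 and F11C1.1 by 1.74 each, and W06D11.3 by 1.73. Of the 15, 12 had also risen in mes-4. The count was 7 without mes-4 replicate 1 or 2, 8 without double mutant replicate 4 and 32 without double mutant replicate 1.

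Between mes-4 and mes-2, 14 genes were higher in mes-4 (1.79%, against 0.652% of all genes). Lower in mes-4 were 2, C11H1.5 and W05H9.3 (0.255%, against 1.3%). K09E3.4 was higher in mes-4 by 2.12, F22F1.2 by 2.05 and K04C1.3 by 2.02, and F39H12.1 by 1.26. C11H1.5 was lower in mes-4 by 1.65 and W05H9.3 by 0.77 on the log2 scale. Both were chosen by this difference, so the lack of overlap of their mes-4 and mes-2 values is a description. The difference lost its call under 9 of 21 other settings for K09E3.4, the replicate block included, and under 8 of 22 for W05H9.3. The 16 calls in both directions became 5 without mes-4 replicate 1 and 26 without double mutant replicate 3.

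Along X, the genes were placed by their order among the 6021 X-linked genes of the reference table, in 10 bins holding equal numbers of table genes and numbered from the start of the chromosome sequence. Bin 1 held the most of these genes, 123, and the lowest share called higher in the double mutant, 8 of them or 6.50%. X-linked genes with other names in the same bin had 23 of 95 called higher there, or 24.2%. The highest shares in the double mutant were in bins 8 and 9, with 28.8% and 30.4%, and the highest in mes-4 was 15.9% in bin 9, against 4.07% in bin 1.

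Bins 8 to 10, grouped after the values were seen, held 233 of the genes, of which 60 were higher in the double mutant (25.8%), 29 in mes-4 (12.4%) and 13 in mes-2 (5.58%). The other 550 had 90 (16.4%), 44 (8.0%) and 11 (2.0%). Among X-linked genes with other names, 22.6% were higher in the double mutant along all of X. In bins 8, 9 and 10 their shares were 15.1%, 32.3% and 20.7%, so only bin 9 lay above. In mes-4 those bins gave 9 of 106, 12 of 99 and 12 of 92, all below their 13.1% along X. In mes-2 they gave 0.943%, 6.06% and 7.61%, against 3.70%. The bin medians of the sequence-named genes moved little, from 0.03 to 0.16 in the double mutant, 0.02 to 0.14 in mes-4 and -0.03 to 0.06 in mes-2. Across the 783 genes, which share arrays and dyes, the Spearman correlation of ratio with gene order was 0.08 in the double mutant, 0.11 in mes-4 and 0.07 in mes-2.

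**Figure D5:**
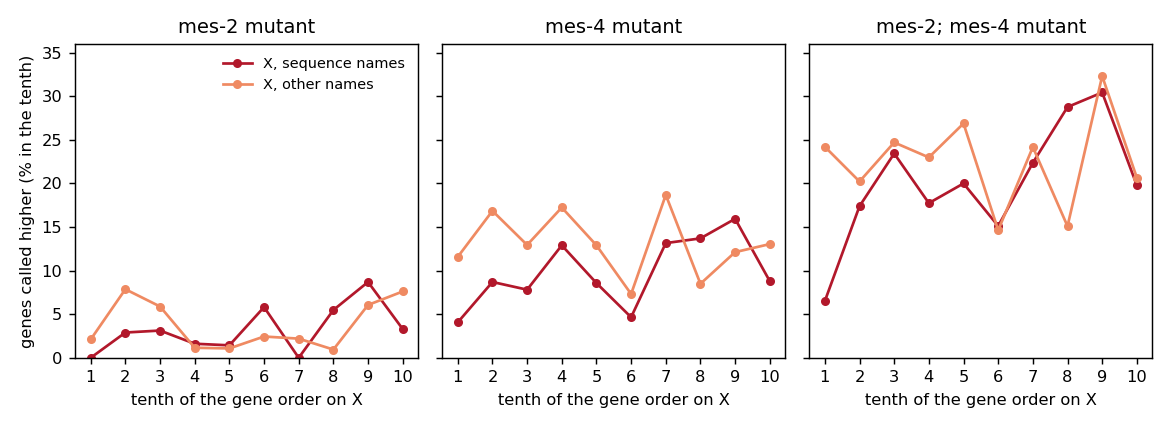
Percent of genes called higher (y axis) in each of 10 bins of gene order along X (x axis) in each mutant, for sequence-named X-linked genes and X-linked genes with other names. Bin 1 was lowest in the double mutant for the sequence-named genes, at 6.50%, while genes with other names had 24.2% there.

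Called genes also stood next to each other. Of the 150 genes higher in the double mutant, 73 had a nearest tested neighbour on X, on either side, also called higher (48.7%). Of the 633 not called higher, 194 had such a neighbour called higher (30.6%). In mes-4 it was 27 of 73 (37%) against 121 of 710 (17.0%), and in mes-2 4 of 24 (16.7%) against 47 of 759 (6.19%). Other genes were not counted in this way, so the pattern is not shown to be particular to these genes. Neighbouring predicted genes can come from 1 clone, and neighbours in an operon or with overlapping transcripts were not separated.

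Runs were counted among sequence-named genes with no other tested gene between them, though untested genes could lie between. The longest such run called higher in the double mutant held 4 genes, F53H4.3, F31B9.7, F31B9.3 and E03G2.1, in bin 10. F31B9.3 had 0.93, 2.05, 3.01 and 2.20 in the double mutant (rise of 2.05, SE 0.25, limma adjusted p = 3.06e-04), and the pseudogene E03G2.1 had 0.77, 1.27, 1.42 and 0.68 (rise of 1.03, SE 0.13). F53H4.3 rose by 0.81 and F31B9.7 by 0.92. All arrays of these 4 genes lay above 0 in the double mutant. In mes-4, F31B9.3 rose by 1.31 and E03G2.1 by 0.60, whereas F53H4.3 and F31B9.7, with 0.30 and 0.21, were not called.

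K08H2.3, K08H2.4 and K08H2.5 in bin 8 made a run of 3, with rises of 0.54, 0.70 and 1.15 in the double mutant. K08H2.5 varied widely there, with 0.02, 1.76, 0.82 and 2.00, and lost the call under 10 of 21 other settings. C27C12.1 and C27C12.4 in bin 9 made the pair with the largest mean rise, 2.50, with 1.81, 2.21, 2.74 and 2.04 for C27C12.1 in the double mutant, and both also rose in mes-4, by 1.43 and 1.36. In all, 33 of the 150 genes higher in the double mutant lay in 15 such runs, and 10 of 73 in 5 runs in mes-4.

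The kind of gene was described too, from the reference table. Of the 42 pseudogenes, 4 rose in the double mutant (E03G2.1, F54G2.2, K09E3.4 and R03G8.4), or 9.52%, close to the 9.62% of all genes. There 1 pseudogene fell (Y73B3A.9), against 6.25% of all genes. In mes-4, 3 rose (E03G2.1, F54G2.2 and K09E3.4), or 7.14% against 2.52% of all genes, and in mes-2 none was called. Of the protein-coding genes, 146 of 736 rose in the double mutant (19.8%), 70 in mes-4 (9.51%) and 24 in mes-2 (3.26%). Genes with at most 1 listed transcript rose in 19.6% of 682 cases in the double mutant, 9.97% in mes-4 and 3.37% in mes-2. The shares of the 101 genes with several were 15.8%, 4.95% and 0.99%, which are only 16, 5 and 1 genes. Neither this split nor that by span below was made over all genes tested.

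By annotated span, the 261 genes from 1516 to 3097 bp had the highest share of rises in the double mutant (23.4%) and in mes-4 (11.9%), and the lowest in mes-2 (1.15%). The 261 shorter genes had 15.7%, 8.05% and 4.98%, and the 261 longer genes 18.4%, 8.05% and 3.07%. The tables used hold no description of these genes, so no function is assigned to any of them.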

How the data were processed

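RNA of dissected mutant and wild-type germ lines was compared on 12 two-colour arrays. The deposited values are log ratios, 1 for each probe on each array, read here as log2, and the log base, direction and normalization are not given in the sources used here. Values ran from -9.31 to 9.15, array medians from -0.01 to 0.02, and 17297 to 21879 of 22490 probes had a value on an array. The number of arrays, not a depth, limits the precision. Per the labels, replicates were harvested independently, and no columns of other samples (0) were present.

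The platform annotation gave the genes of the probes (17461 named 1 gene, 5029 none) and a gene table of assembly WBcel235 placed them on chromosomes (17371 matched, 90 not). Probes of a gene were averaged per array by symbol. In R 4.3.3, limma 3.58.1 fitted the 12 arrays together, with group means and a dye orientation term, and Benjamini-Hochberg adjustment over 12887 genes. Errors are limma standard errors unless named SD. Summaries used Python 3.11.15 and pandas 2.3.3.

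Tested on simulated data for the mes-4 comparison (12887 genes, 200 changed), the fit recovered 75 of 100 changes of log2 size 1 and 95 of 100 of size 2, with 7 false calls. The simulated noise was independent between genes and arrays, whereas in the data 1 axis held 47.0% of the residual variance. These rates therefore hold for the simpler noise and do not give the error rates of the data. The genes studied, the lists of markers and the tests were chosen with earlier results of these data known. Named genes were, per mutant, the 12 called genes with the highest and 6 with the lowest ratio that lay on 1 side of 0 on every array, the 4 largest called differences each way, genes called in all 3 mutants and genes of the 3 leading runs. Sequences and annotation groups were not used here. Same-numbered arrays of different groups had residual correlations from -0.47 to 0.54, and arrays with other numbers from -0.72 to 0.64, so the numbers were not taken as pairs.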

Additional observations from a re-analysis of the deposited data

Results flagged for a closer look

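Of 85 sets of 4 values tested for an array far from the others, 3 had one, and chance alone gives about 1 in 20. F23D12.3 had -0.60 on double mutant replicate 1, against values from -1.24 to -1.15 on the other 3 arrays. H40L08.1 had 2.85 on mes-4 replicate 4, against 1.40 to 1.42. C27C12.1 had 0.63 on mes-2 replicate 3, against 0.68 to 0.69, a gap that is small in size.

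Some genes differed between mutants by the test of the difference itself. Double mutant minus mes-2 was 3.34 for Y26E6A.2, 3.04 for F08G12.1, 2.77 for C36B7.6 and 2.73 for R08B4.3, and -1.13 for F38B6.7, -0.69 for C02B8.3 and -0.52 for R04D3.2. Double mutant minus mes-4 was 2.35 for Y26E6A.2, 1.74 for R08B4.3, 1.74 for F11C1.1 and 1.73 for W06D11.3. mes-4 minus mes-2 was 2.12 for K09E3.4, 2.05 for F22F1.2, 2.02 for K04C1.3, 1.26 for F39H12.1, -1.65 for C11H1.5 and -0.77 for W05H9.3. Of these, the calls of F38B6.7, R04D3.2, K09E3.4 and W05H9.3 were lost under 16 of 21, 14 of 22, 9 of 21 and 8 of 22 other settings.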

How the results depend on the processing

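Each count of called genes was repeated under other settings. The numbers of higher calls in mes-4 and in the double mutant stayed within 1.5 times their value except where given. Without the dye term there were 2 lower calls in mes-2, 0 in mes-4 (10 at an unadjusted p under 0.05 in limma) and 7 in the double mutant, and the differences gave 45 calls for double mutant minus mes-2, 6 for double mutant minus mes-4 and 6 for mes-4 minus mes-2. With arrays scaled to a common spread, lower calls were 11, 4 and 7 in mes-2, mes-4 and the double mutant, and the calls for double mutant minus mes-4 and mes-4 minus mes-2 were 8 and 31. With each group's own arrays, the double mutant had 26 higher and 0 lower calls (22 lower at an unadjusted p under 0.05 in limma), mes-4 had 4 lower calls, and the differences gave 32, 6 and 34. Genes with all 12 values gave 4 lower calls in mes-4, and robust estimation gave 1 there and 8 for double mutant minus mes-4. Without the 3 upper arrays, mes-2 had 61 higher and 19 lower calls, mes-4 10 lower, the double mutant 27 lower, and the differences 115, 45 and 46. Without the 2 lower arrays, mes-2 had 38 higher and 14 lower calls, mes-4 6 lower and the double mutant 27 lower, with 46 for double mutant minus mes-4 and 34 for mes-4 minus mes-2. With the replicate number as a block, lower calls were 3 in mes-2, 0 in mes-4 (16 at an unadjusted p under 0.05 in limma) and 11 in the double mutant, higher calls 21, 53 and 141, and the last 2 differences 7 and 5. Leaving out single arrays, higher calls ran from 12 to 37 in mes-2, 38 to 86 in mes-4 and 124 to 154 in the double mutant, and lower calls from 2 to 7, 0 to 4 and 8 to 20. The differences then ran from 50 to 81 for double mutant minus mes-2, 7 to 32 for double mutant minus mes-4 and 5 to 26 for mes-4 minus mes-2. The cause of these shifts was not tested. The spread of bin medians along X (0.085, 0.113 and 0.133 in mes-2, mes-4 and the double mutant with 10 bins) was 0.033, 0.0563 and 0.04 with 5 bins, and 0.178 in mes-4 and 0.241 in the double mutant with 20 bins. For the 57 named genes, in the comparisons they were named for, these settings together kept 1970 calls and lost 283, and none turned a ratio to the other side of 0. Signal over background is unknown, so weak probes cannot be told from strong ones.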
